A study of Mus musculus with 20 samples.

Results

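The 8 lymph node RNA libraries of the series, of 20 libraries in all, were taken as a comparison of 4 libraries of follicular helper T cells (Tfh) with 4 libraries of non-Tfh cells. They were chosen by their labelled sort gates. The Tfh libraries came from CXCR5highPD1high cells and the non-Tfh libraries from CXCR5lowPD1low cells, 2 libraries from Tomato+ and 2 from Tomato- cells in each population. All 4 groups came from C57BL/6-background mice that carry T-bet-Cre together with a Rosa26-loxP-STOP-loxP-tdTomato reporter, and all were tetramer-binding CD4 T cells of the draining lymph node on day 16 after AS15 immunization. Cre is driven by T-bet in these mice, so Tomato marks cells that express T-bet or once did. Tomato- cells are those in which the reporter was not recombined. The labels give neither age nor sex of the mice. They also do not say whether the 2 libraries of a group came from separate mice, so p-values measure the spread between these libraries only. The question asked of the RNA was which genes differ between Tfh and non-Tfh cells whether or not the cells carry the T-bet mark.

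Tfh cells are the CD4 T cells that enter B cell follicles and sustain germinal centres. Bcl6, a transcriptional repressor, is required for their fate. It opposes Blimp-1, the product of Prdm1. CXCR5 draws the cells into the follicle, interleukin 21 and interleukin 4 act on B cells, and the adaptor SAP, the product of Sh2d1a, lets SLAM family receptors support stable contact with B cells. Cells that stay outside the follicle depend on receptors for lymph node exit and for homing to tissues, such as the sphingosine-1-phosphate receptor S1PR1 and the selectin ligand PSGL-1.

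Read totals over genes ran from 16129788 to 20225695 in the Tfh libraries and from 13169625 to 18262121 in the non-Tfh libraries. Cd4 had 340 to 416 RPKM (reads scaled to transcript length and library total, as deposited by the authors) in Tfh libraries and 346 to 444 RPKM in non-Tfh libraries, so both populations carried this defining transcript and their ranges overlapped. Non-Tfh Tomato- replicate 2 stood apart on the first principal component, at 136.8 against -40.36 to 8.931 in the other 7 libraries. Macrophage and dendritic cell markers were higher in Tomato- than in Tomato+ libraries of both populations. The summed level of 20 macrophage and monocyte markers was 411 to 559 RPKM in Tfh Tomato+, 1070 to 1190 in Tfh Tomato-, 204 to 312 in non-Tfh Tomato+ and 1430 to 1550 in non-Tfh Tomato- libraries. Neutrophil markers summed to 610 RPKM in Tfh Tomato- replicate 2 and 482 RPKM in non-Tfh Tomato- replicate 2, against 56.3 to 66.5 RPKM in the other Tfh libraries and 69.0 to 194 RPKM in the other non-Tfh libraries. None of the 7 tested plasma cell markers, 20 macrophage, 11 neutrophil, 15 dendritic cell, 12 NK and innate-like T cell, 2 CD8 T cell, 3 erythroid or 3 stromal markers differed between Tfh and non-Tfh cells in the edgeR test described below, where 3 macrophage, 2 dendritic cell and 1 plasma cell marker had an unadjusted p below 0.05. DESeq2 called 2 of the macrophage and 3 of the dendritic cell markers. Over all genes tested, edgeR called 0.971%, and 1268 of 11746 had an unadjusted p below 0.05. DESeq2 called 698 of the 13436 genes it fitted. At these shares, marker lists of this size would hold few or no calls whatever their genes. Both tests fit a common difference for both Tomato states, in which opposite differences cancel. Summed macrophage markers were higher in Tfh than in non-Tfh libraries among Tomato+ cells and lower among Tomato- cells. These counts therefore do not show that other cells were balanced between the populations within a Tomato state. Of 16 B cell markers 1 was called (Cd22, higher in Tfh), and of 14 CD4 T cell markers 1 (Thy1, lower in Tfh). The part of other cells in the results below was not tested.

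**Figure D1:**
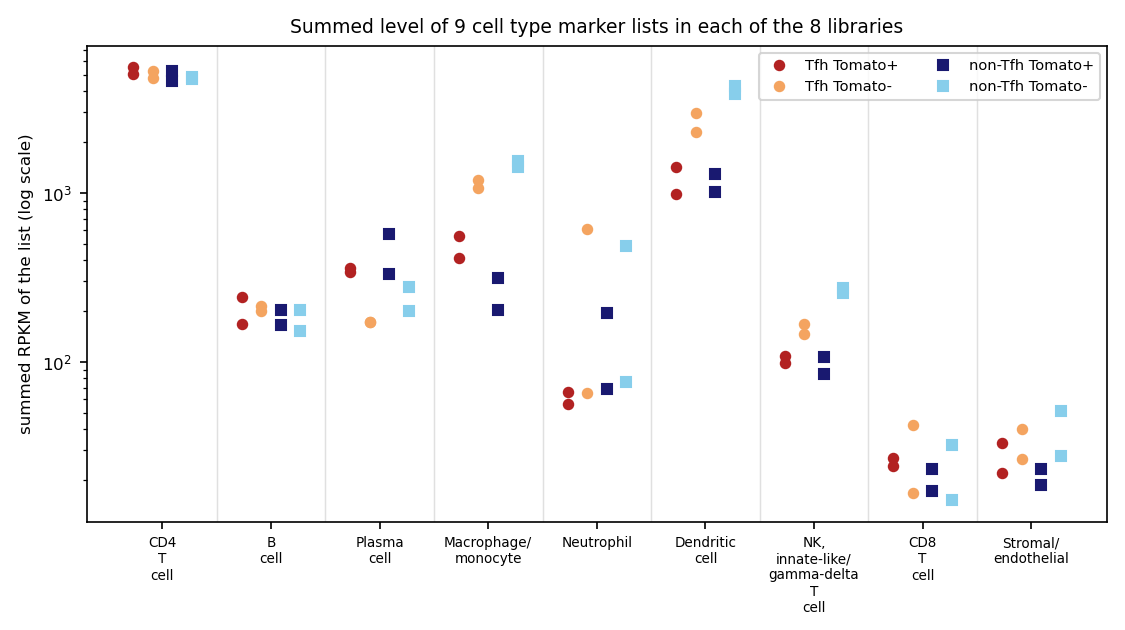
Summed RPKM (log axis) of 9 cell type marker lists in each library, with Tfh groups (circles) left of non-Tfh groups (squares). CD4 T cell markers lie between 4550 and 5530 RPKM in all 8 libraries. Macrophage and dendritic cell markers are higher in Tomato- than in Tomato+ libraries of both populations, and neutrophil markers stand out in replicate 2 of both Tomato- groups. Erythroid and platelet markers, at 0 in 1 library of each population, are not drawn.

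In the model with population and Tomato state as additive terms, 114 of 11746 genes tested differed between Tfh and non-Tfh cells, which is 0.971% of them (edgeR quasi-likelihood test, Benjamini-Hochberg adjusted p below 0.05). Of these, 53 were higher in Tfh cells (0.451%) and 61 were lower (0.519%). With library totals alone in place of trimmed-mean factors the split was 54 higher and 40 lower. The genes that were higher in Tfh cells had a median log2 fold change of 2.06 and those that were lower one of -1.19, beside 0.00771 over all genes tested. At least a 2-fold difference was fitted for 48 of the 53 higher genes and 40 of the 61 lower ones. The 4 Tfh and 4 non-Tfh libraries did not overlap in 100 of the 114 genes. Over all genes tested, the 4 Tfh libraries lay above the 4 non-Tfh libraries in 392 (3.34%) and below them in 373 (3.18%). The 14 called genes whose libraries overlapped, among them Id2, Ifngr1, Vim and Crip1, overlapped only across Tomato states: in all 114 genes the Tfh and non-Tfh libraries of the same state did not overlap, which their selection by a model with the Tomato term largely fixes. Over all genes tested, 1301 (11.1%) did not overlap in the same direction within both states. Leaving out any 1 of the 8 libraries left 34 to 66 called genes, and leaving out non-Tfh Tomato- replicate 2, the library that stands apart, left 66 (36 higher and 30 lower). Of the 114 genes, 25 passed in all 8 of these fits and 31 in none. Among the genes described below the call held in all 8 for Ascl2, Bcl6, Tox, Pdcd1, Sh2d1a, Sostdc1, Il4, Nfatc1, Cxxc5, Nanos1, Selplg, Itgb7, Il7r, Ifngr1, Cish, Anxa6, Vim and Rasgrp2. It held in 5 to 7 for Cxcr5, Tox2, Hif1a, Pipox, Enpp5, Padi4, Id2, Dusp1, Fos and Ahnak, in 1 to 4 for Il21, Cd160, Chn1, Art2a-ps, Cd22, S1pr1, S1pr4, Gpr183, Crip1, Tagln2, S100a6, S100a10, Irf1, Foxp3, Hist1h1c, Glrx, Podnl1, Esyt1 and Arl4c, and in none for Icos, Fyn, Tigit, Klf2, Satb1, B2m, Rgs1, Dusp5, Thy1, Cd7, Sbk2 and Zcchc12.

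**Figure D2:**
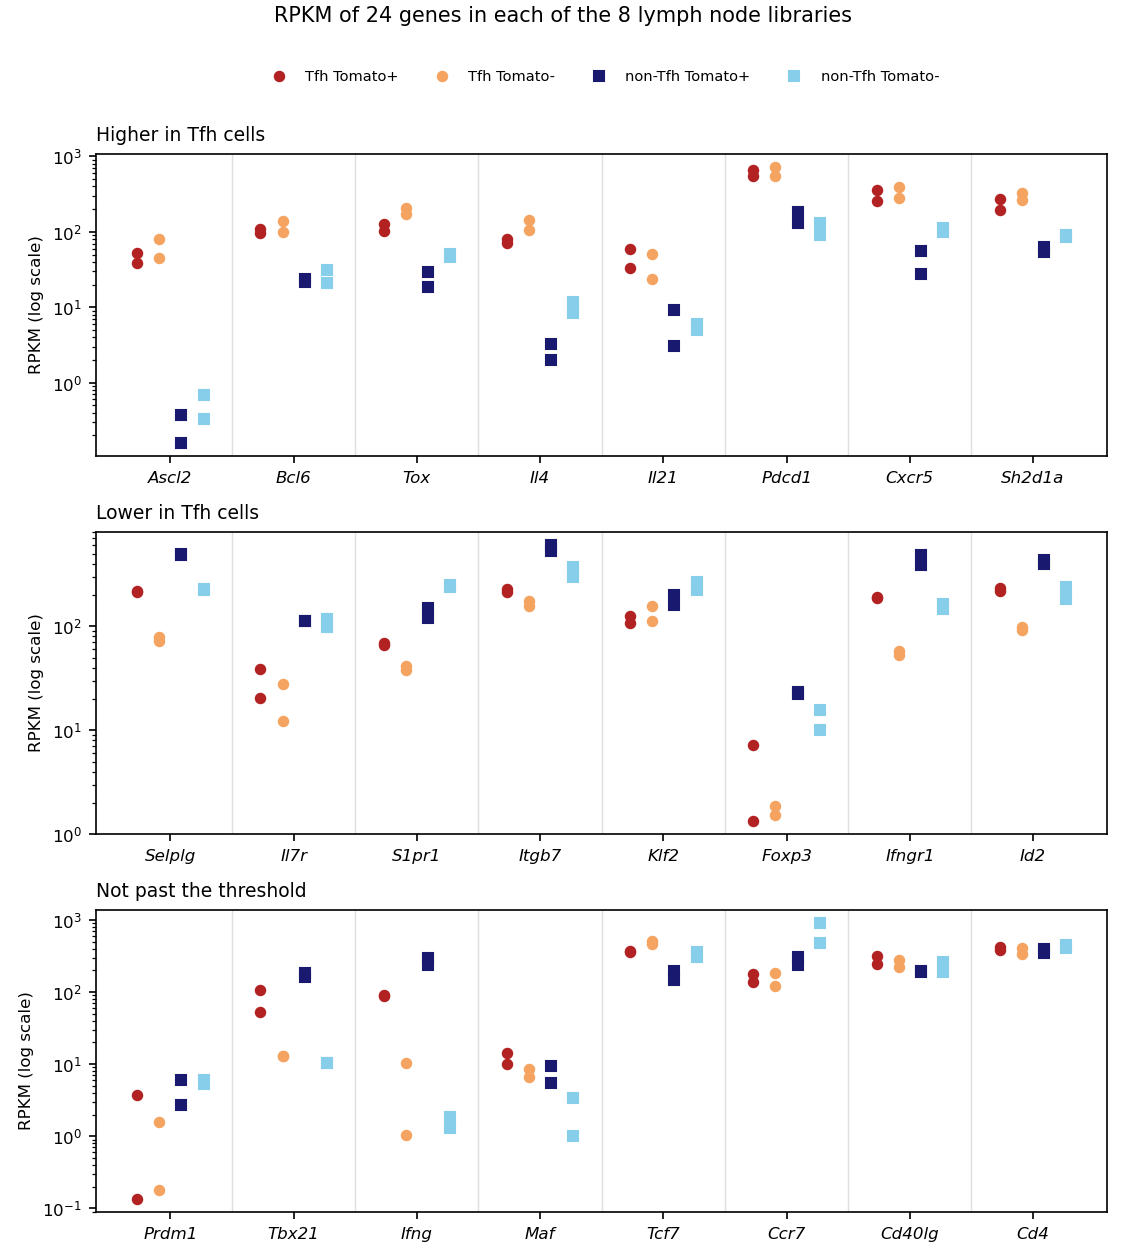
RPKM (log axis) of 24 genes in each of the 8 libraries, with Tfh groups (circles) left of non-Tfh groups (squares), 2 libraries a group. The upper 2 panels show genes past the threshold and the lowest panel genes that were not. Ascl2 lies between 38.5 and 80.8 RPKM in Tfh libraries and at or below 0.686 RPKM in non-Tfh libraries, while Tbx21 and Ifng are higher in every Tomato+ than in every Tomato- library.

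Of 38 tested Tfh regulators and markers, 12 were higher in Tfh cells and 1 was lower, with a list median of 0.976. Ascl2, Bcl6, Tox, Tox2, Sh2d1a, Sostdc1, Il4, Il21, Nfatc1, Hif1a, Cxcr5 and Pdcd1 were the 12, and Icos was the 1. The direction of the last pair of the 12 follows from the sort, which was made on their proteins. Cxcr5 had 360 and 258 RPKM in Tfh Tomato+ and 394 and 277 in Tfh Tomato- libraries, against 27.8 and 55.7 in non-Tfh Tomato+ and 113 and 98.3 in non-Tfh Tomato- libraries. Pdcd1, which encodes PD-1, averaged 615 ± 85.1 RPKM in Tfh and 134 ± 38.0 RPKM in non-Tfh libraries (SD, n = 4 each). So the transcripts of both sort markers were lower in the CXCR5lowPD1low gate but well above 0 there.

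Ascl2 encodes a basic helix-loop-helix factor that induces Cxcr5 in mouse T cells. It had 38.5 and 51.9 RPKM in Tfh Tomato+ and 80.8 and 44.7 RPKM in Tfh Tomato- libraries, against 0.160 and 0.370 RPKM in non-Tfh Tomato+ and 0.332 and 0.686 RPKM in non-Tfh Tomato- libraries. Every Tfh library was far above every non-Tfh library. The fitted log2 fold change was 7.08 ± 0.52 (SE, adjusted p = 0.00217 by edgeR), 7.29 in Tomato+ and 6.89 in Tomato- cells. Bcl6 had 110, 95.2, 139 and 101 RPKM in the 4 Tfh libraries and 23.7, 21.9, 31.6 and 21.1 RPKM in the 4 non-Tfh libraries. Its levels varied little within a population, and its log2 fold change of 2.11 ± 0.19 (SE, adjusted p = 0.00251 by edgeR) was 2.08 in Tomato+ and 2.14 in Tomato- cells. The HMG-box gene Tox had 103 to 207 RPKM in Tfh and 18.8 to 51.0 RPKM in non-Tfh libraries, with a log2 fold change of 2.04 ± 0.18 (SE, adjusted p = 0.00251 by edgeR). Its relative Tox2 rose by 2.30 ± 0.32 (SE) on the log2 scale (adjusted p = 0.0147 by edgeR). Tox was higher in Tomato- than in Tomato+ cells of both populations, and the populations did not overlap. Nfatc1, a calcium-dependent transcription factor, averaged 154 ± 11.2 RPKM in Tfh and 81.5 ± 11.1 RPKM in non-Tfh libraries (SD, n = 4 each), and Hif1a, the oxygen-regulated factor, 232 ± 15.5 RPKM in Tfh and 113 ± 20.3 RPKM in non-Tfh libraries (SD, n = 4 each).

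Promoter sequences (from 250 bases before to 50 after an annotated start; RefSeq, GRCm38.p6, a build other than the mm9 named for the deposited data) were available for 40 of the 53 higher and 38 of the 61 lower genes. They were searched for CAGCTG, a form of the E-box to which basic helix-loop-helix factors bind, and for TTCNNNGAA, the form of site bound by STAT factors. Both read the same on both strands and do not overlap each other in the windows printed. CAGCTG was present in 13 of 40 higher genes (32.5%), 10 of 38 lower genes (26.3%) and 1449 of 8320 genes tested (17.4%). TTCNNNGAA was present in 4 of 40 higher genes (10%), 7 of 38 lower genes (18.4%) and 712 of 8320 genes tested (8.56%). A gene with several annotated starts counts once if any of its windows holds the letters. Shown are 2 genes with the STAT form, Bcl6 and the STAT-induced inhibitor Cish, and 2 with the E-box, Pipox and the E-protein inhibitor Id2, each 5′ to 3′ with the matches in capitals. Bcl6 and Pipox were higher in Tfh cells, Cish and Id2 lower.
Bcl6, chr16:23981234-23981533, minus strand: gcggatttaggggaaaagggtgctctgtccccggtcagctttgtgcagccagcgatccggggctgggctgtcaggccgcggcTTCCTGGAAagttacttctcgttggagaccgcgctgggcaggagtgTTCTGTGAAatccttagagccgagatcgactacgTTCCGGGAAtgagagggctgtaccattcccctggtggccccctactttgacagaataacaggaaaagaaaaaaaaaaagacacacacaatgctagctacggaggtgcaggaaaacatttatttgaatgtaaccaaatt
Cish, chr9:107296409-107296708, plus strand: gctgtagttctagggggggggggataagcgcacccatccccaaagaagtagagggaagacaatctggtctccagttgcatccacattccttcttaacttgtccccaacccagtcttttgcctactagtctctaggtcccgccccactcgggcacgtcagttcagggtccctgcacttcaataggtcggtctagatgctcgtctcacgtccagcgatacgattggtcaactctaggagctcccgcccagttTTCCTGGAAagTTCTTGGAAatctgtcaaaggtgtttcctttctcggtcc
Pipox, chr11:77893823-77894122, minus strand: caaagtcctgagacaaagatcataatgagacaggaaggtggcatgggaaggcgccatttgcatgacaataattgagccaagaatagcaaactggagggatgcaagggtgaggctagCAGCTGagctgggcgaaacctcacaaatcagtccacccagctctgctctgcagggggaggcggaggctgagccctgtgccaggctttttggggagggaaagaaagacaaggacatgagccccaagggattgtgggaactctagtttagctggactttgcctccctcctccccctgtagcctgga
Id2, chr12:25096043-25096342, minus strand: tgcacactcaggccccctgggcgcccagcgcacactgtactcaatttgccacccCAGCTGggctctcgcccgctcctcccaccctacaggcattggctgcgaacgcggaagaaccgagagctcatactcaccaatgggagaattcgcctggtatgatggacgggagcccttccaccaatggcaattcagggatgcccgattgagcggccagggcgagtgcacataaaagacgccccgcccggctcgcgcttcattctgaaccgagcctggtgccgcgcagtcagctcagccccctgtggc
The Bcl6 window holds 3 matches to TTCNNNGAA and the Cish window 2 that lie side by side. The windows of Pipox and Id2 hold 1 CAGCTG each. These matches are letters in a window and do not show that a factor binds there.

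Both B cell helper cytokines were higher in Tfh cells, while most ligands and costimulatory receptors were not past the threshold in edgeR. Of 21 tested members of that list 2 were higher and 1 lower (edgeR), with a median of -0.108. At an unadjusted p below 0.05 the count was 13, and DESeq2 called 4 higher and 5 lower. Il4 had 71.8 and 81.2 RPKM in Tfh Tomato+ and 144 and 104 RPKM in Tfh Tomato- libraries, against 3.23 and 1.98 RPKM in non-Tfh Tomato+ and 11.6 and 8.28 RPKM in non-Tfh Tomato- libraries. No Tfh library was near the non-Tfh range, and the log2 fold change was 4.18 ± 0.47 (SE, adjusted p = 0.00602 by edgeR). Il4 was the 1 gene of 18 tested Th2 and Th17 genes past the threshold in edgeR. Of these 18, 9 had an unadjusted p below 0.05, and DESeq2 called 1 higher and 2 lower. Gata3, the factor that directs Th2 cells, averaged 90.2 ± 12.4 RPKM in Tfh and 95.7 ± 20.5 RPKM in non-Tfh libraries (SD, n = 4 each; adjusted p = 0.897 by edgeR). Il21 had 59.0, 33.3, 51.0 and 23.7 RPKM in Tfh libraries and 3.09, 9.19, 4.97 and 5.95 RPKM in non-Tfh libraries, a log2 fold change of 2.77 ± 0.43 (SE, adjusted p = 0.0224 by edgeR). Its Tfh values differed more between the replicates of a Tomato state than between the means of the states, and the call held in 4 of the 8 fits that leave out a library. Cd40lg, the CD40 ligand, averaged 267 ± 41.6 RPKM in Tfh and 209 ± 34.2 RPKM in non-Tfh libraries (SD, n = 4 each), with a log2 fold change of 0.28 (adjusted p = 0.669 by edgeR).

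Icos, a costimulatory receptor needed for Tfh cells, had 172, 196, 163 and 157 RPKM in Tfh libraries and 265, 255, 228 and 294 RPKM in non-Tfh libraries. Its transcript was therefore lower in the Tfh gate in every library. The log2 fold change was -0.67 ± 0.12 (SE, adjusted p = 0.0415 by edgeR), and the call was lost whichever library was left out and with library totals alone (adjusted p = 0.0641 by edgeR). Tnfrsf4 (OX40) had 152 to 216 RPKM in Tfh and 265 to 303 RPKM in non-Tfh libraries (adjusted p = 0.0537 by edgeR), and Cd28 142 to 180 RPKM in Tfh and 180 to 248 RPKM in non-Tfh libraries (adjusted p = 0.208 by edgeR).

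Among 12 tested SLAM receptors and adaptors, the adaptor Sh2d1a and the kinase Fyn, which SAP recruits, were higher in Tfh cells, and none was lower. The list median was -0.356. Sh2d1a had 270, 194, 328 and 261 RPKM in Tfh libraries and 63.1, 53.6, 85.5 and 90.4 RPKM in non-Tfh libraries. The lowest Tfh value was above the highest non-Tfh value, with a log2 fold change of 1.80 ± 0.19 (SE, adjusted p = 0.00489 by edgeR). Fyn had a smaller difference, 106 ± 10.1 RPKM in Tfh and 56.9 ± 7.73 RPKM in non-Tfh libraries (SD, n = 4 each). Of 16 tested inhibitory receptors 3 were higher and none lower (edgeR), namely Pdcd1, Cd160 and Tigit, with a list median of 0.346. At an unadjusted p below 0.05 the count was 10, and DESeq2 called 5, all higher. Cd160 had 24.1 to 43.4 RPKM in Tfh and 2.996 to 8.95 RPKM in non-Tfh libraries, a log2 fold change of 2.52 ± 0.41 (SE, adjusted p = 0.0270 by edgeR). Tigit had 493 to 646 RPKM in Tfh and 213 to 311 RPKM in non-Tfh libraries. Btla, another inhibitory receptor, had 20.6 to 54.1 RPKM in Tfh and 10.7 to 29.0 RPKM in non-Tfh libraries and was not past the threshold (adjusted p = 0.165 by edgeR).

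Several of the largest differences were in genes close to absent from non-Tfh libraries. Pipox encodes an enzyme that oxidises pipecolic acid. It had 231, 395, 1112 and 398 reads in the 4 Tfh libraries and 1, 3, 3 and 2 reads in the 4 non-Tfh libraries, a 209-fold ratio of reads scaled to library totals (exact 95% interval 110 to 458, counting error only). Enpp5, of a family of ecto-phosphodiesterases, had 366, 190, 992 and 464 reads in Tfh and 3 in each non-Tfh library, a ratio of 148 (84.4 to 287). Chn1, which encodes a GTPase-activating protein for Rac, had 2434 reads over the Tfh and 16 over the non-Tfh libraries, a ratio of 134 (82.4 to 235). The putative kinase gene Sbk2 had 1231 reads over the Tfh and 6 over the non-Tfh libraries, and the zinc-finger gene Zcchc12 1869 reads over the Tfh and 9 over the non-Tfh libraries. These 5 genes were present in every Tfh library and at a few reads at most in every non-Tfh library.

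Cxxc5, a CXXC-type zinc-finger gene, had 31.3, 28.8, 29.4 and 35.3 RPKM in Tfh libraries and 0.208, 0.952, 0.217 and 0.209 RPKM in non-Tfh libraries. The 4 Tfh values were nearly equal, and the log2 fold change was 6.34 ± 0.66 (SE, adjusted p = 0.00489 by edgeR). Nanos1, an RNA-binding translational repressor, averaged 15.9 ± 4.71 RPKM in Tfh and 0.366 ± 0.370 RPKM in non-Tfh libraries (SD, n = 4 each). Padi4, an enzyme that converts arginine in proteins to citrulline, averaged 47.6 ± 15.9 RPKM in Tfh and 0.912 ± 0.952 RPKM in non-Tfh libraries (SD, n = 4 each). Sostdc1, a secreted antagonist of BMP and Wnt signals, had 264 to 464 RPKM in Tfh and 27.7 to 101 RPKM in non-Tfh libraries. Its log2 fold change was 3.32 in Tomato+ and 2.09 in Tomato- cells. Art2a-ps is an ADP-ribosyltransferase pseudogene whose reads could be shared with its close copy, so its log2 fold change of 3.91 ± 0.65 (SE, adjusted p = 0.0290 by edgeR) is uncertain in its source. The same holds for Rnaset2a and Rnaset2b, near-identical copies that were both called. Cd22, a B cell inhibitory receptor, had 20.8 to 36.7 RPKM in Tfh and 3.59 to 11.3 RPKM in non-Tfh libraries. The summed B cell marker level, of which Cd22 is itself a part, was 168 to 241 RPKM in Tfh and 153 to 204 RPKM in non-Tfh libraries.

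**Figure D3:**
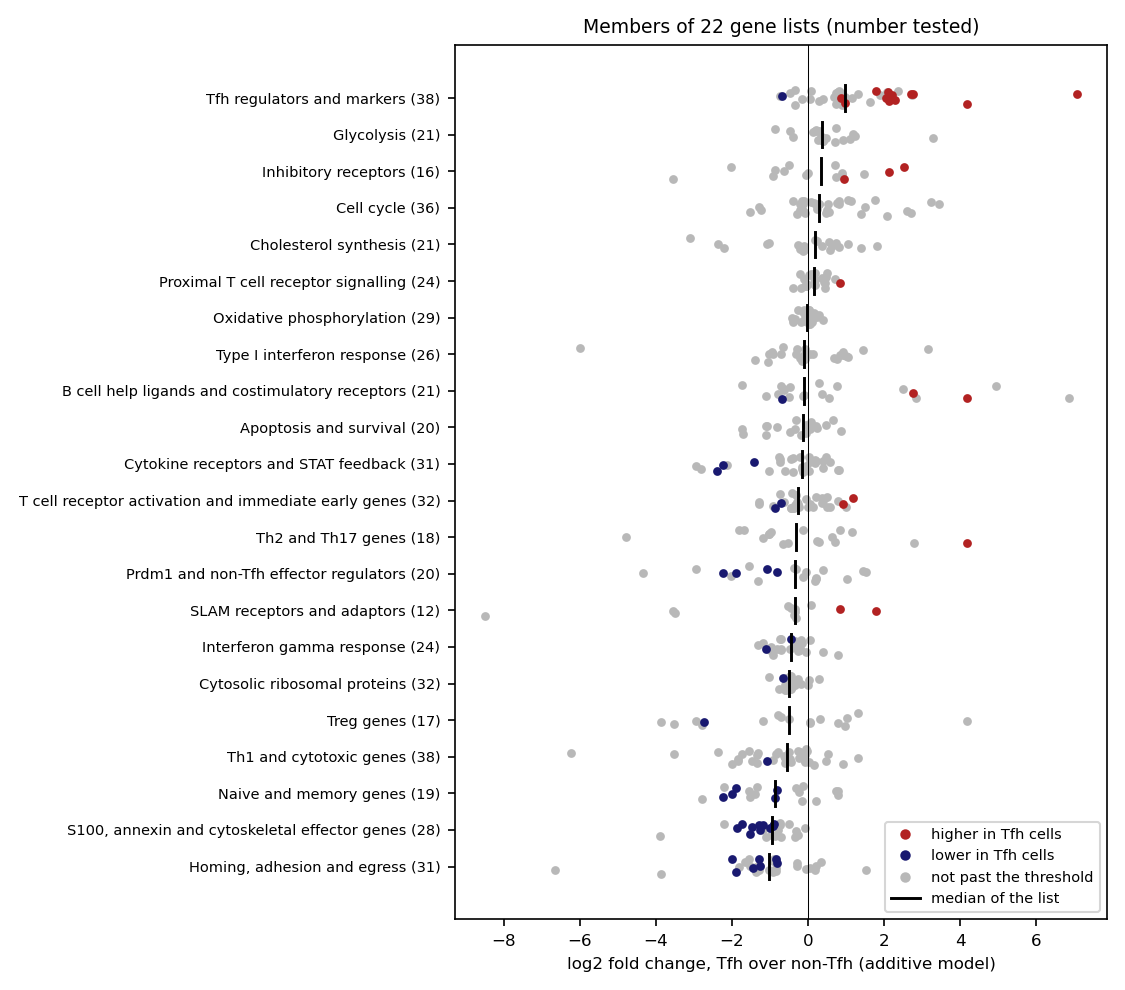
Log2 fold change of Tfh over non-Tfh cells (additive model) for the tested members of 22 gene lists, ordered by the list median (black bar), with the number tested in brackets. Red points are genes higher in Tfh cells, blue points genes lower in Tfh cells and grey points genes not past the threshold. The Tfh list has the highest median (0.976) and the homing list the lowest (-1.02).

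Of 31 tested homing, adhesion and egress genes 7 were lower in Tfh cells and none higher (edgeR), with a list median of -1.02, and 26 of the 31 had a negative fold change. The count of lower genes was 5 with library totals alone, 17 with DESeq2 and 1 (S1pr1) without the Tomato term, where the median was -0.973. Selplg, which encodes PSGL-1, had 212 and 220 RPKM in Tfh Tomato+ and 79.4 and 71.4 RPKM in Tfh Tomato- libraries, against 492 and 487 RPKM in non-Tfh Tomato+ and 230 and 223 RPKM in non-Tfh Tomato- libraries. Replicates were close to each other, Tomato+ cells were higher in both populations, and the log2 fold change was -1.45 ± 0.12 (SE, adjusted p = 0.00251 by edgeR). S1pr1 had 69.1, 65.5, 41.2 and 37.6 RPKM in Tfh libraries and 150, 121, 239 and 247 RPKM in non-Tfh libraries. Its difference was -1.10 on the log2 scale in Tomato+ and -2.67 in Tomato- cells, and the 4 Tfh libraries lay below all 4 non-Tfh libraries. Itgb7, a gut-homing integrin chain, averaged 193 ± 32.8 RPKM in Tfh and 451 ± 139 RPKM in non-Tfh libraries (SD, n = 4 each). Gpr183, the oxysterol receptor EBI2 that draws cells to the follicle border, had 163 to 206 RPKM in Tfh and 236 to 399 RPKM in non-Tfh libraries. S1pr4, a further sphingosine-1-phosphate receptor, and Klf2, the factor that drives S1pr1, were also lower, with log2 fold changes of -1.29 ± 0.23 and -0.82 ± 0.16 (SE).

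Ccr7, the receptor that keeps cells in the T cell zone, had 137, 180, 120 and 186 RPKM in Tfh libraries and 234, 302, 476 and 896 RPKM in non-Tfh libraries. No Tfh value reached the non-Tfh range, but the non-Tfh values were spread widely and the log2 fold change of -1.54 ± 0.34 (SE) had an adjusted p of 0.0867 by edgeR. Cxcr6, an effector homing receptor, had 83.3 to 281 RPKM in Tfh and 110 to 536 RPKM in non-Tfh libraries (adjusted p = 0.0502 by edgeR), and Cxcr3 26.1 to 110 RPKM in Tfh and 58.9 to 193 RPKM in non-Tfh libraries (adjusted p = 0.0677 by edgeR). With replicate 2 of both Tomato- groups left out, 2 of the 31 homing genes passed and 8 of the 38 Tfh genes were higher, beside medians of -0.981 for the homing list and 1.04 for the Tfh list.

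S100, annexin and cytoskeletal genes made up the largest group of lower calls. Of 28 tested members 10 were lower and none higher, the median was -0.948, and all 28 had a negative fold change. The 10 were Anxa6, Vim, Crip1, Tagln2, Ahnak, Emp3, Capg, Flna, S100a10 and S100a6. Anxa6, a calcium-dependent membrane-binding protein, had 58.5 and 77.3 RPKM in Tfh Tomato+ and 18.8 and 25.9 RPKM in Tfh Tomato- libraries, against 192 and 186 RPKM in non-Tfh Tomato+ and 90.7 and 105 RPKM in non-Tfh Tomato- libraries. Vim, the intermediate filament vimentin, had 155 and 134 RPKM in Tfh Tomato+ and 37.0 and 51.7 RPKM in Tfh Tomato- libraries, against 376 and 490 RPKM in non-Tfh Tomato+ and 118 and 103 RPKM in non-Tfh Tomato- libraries. Tfh values lay below non-Tfh values within each Tomato state, but for Vim Tfh Tomato+ cells lay above non-Tfh Tomato- cells. Crip1, a LIM-domain protein, had the same pattern, with 1118 and 836 RPKM in Tfh Tomato+ and 210 and 239 RPKM in Tfh Tomato- libraries, against 1947 and 1606 RPKM in non-Tfh Tomato+ and 618 and 656 RPKM in non-Tfh Tomato- libraries. With Tomato left out of the model 0 of the 28 passed in edgeR and 12 had an unadjusted p below 0.05, while the list median was -1.01. Over all genes tested, 1236 of 11746 had such a p without the Tomato term. DESeq2 with the Tomato term called 18. With replicate 2 of both Tomato- groups left out 3 passed, with a median of -1.11.

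Cytokine receptors and their feedback genes showed 3 lower members of 31 tested, Il7r, Ifngr1 and Cish, and none higher (edgeR), with a median of -0.166. DESeq2 called 2 higher and 6 lower, and without the Tomato term edgeR called 1 lower. Il7r, the interleukin 7 receptor, had 20.3, 38.6, 12.4 and 28.1 RPKM in Tfh libraries and 111, 112, 98.8 and 117 RPKM in non-Tfh libraries. The non-Tfh values were nearly equal, and the log2 fold change was -2.24 ± 0.30 (SE, adjusted p = 0.0128 by edgeR). Ifngr1, a chain of the interferon gamma receptor, had 186 and 191 RPKM in Tfh Tomato+ and 52.6 and 58.0 RPKM in Tfh Tomato- libraries, against 480 and 391 RPKM in non-Tfh Tomato+ and 162 and 148 RPKM in non-Tfh Tomato- libraries. Cish, a SOCS-family inhibitor of cytokine signalling, had 50.2 and 66.7 RPKM in Tfh Tomato+ and 7.003 and 5.01 RPKM in Tfh Tomato- libraries, against 199.9 and 190.4 RPKM in non-Tfh Tomato+ and 55.3 and 37.4 RPKM in non-Tfh Tomato- libraries. Both genes were higher in Tomato+ than in Tomato- cells of each population and lower in Tfh cells within each Tomato state. Il21r, the receptor of interleukin 21, had 56.0 to 87.6 RPKM in Tfh and 111 to 142 RPKM in non-Tfh libraries and was not past the threshold (adjusted p = 0.107 by edgeR).

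Of 20 tested regulators and receptors of the list for non-Tfh effector cells 4 were lower, Id2, Il7r, S1pr1 and Klf2, and none was higher (edgeR), with a median of -0.351. DESeq2 called 7, all lower, and without the Tomato term edgeR called 2. The lists share members: all 4 edgeR calls are also counted in other lists described here, so they are not separate results. Id2, an inhibitor of E-protein transcription factors, averaged 161 ± 76.2 RPKM in Tfh and 313 ± 120 RPKM in non-Tfh libraries (SD, n = 4 each). Its log2 fold change was -1.08 ± 0.14 (SE, adjusted p = 0.0114 by edgeR), -0.96 in Tomato+ and -1.21 in Tomato- cells. Prdm1 was low throughout, with 0.136, 3.70, 0.180 and 1.55 RPKM in Tfh libraries and 2.73, 6.02, 5.24 and 6.02 RPKM in non-Tfh libraries. These ranges overlap, and the log2 fold change of -2.03 ± 1.06 (SE) had an adjusted p of 0.572 by edgeR. Tcf7 and Maf, factors of the Tfh list, were not past the threshold: Tcf7 averaged 428 ± 72.8 RPKM in Tfh and 254 ± 98.3 RPKM in non-Tfh libraries (adjusted p = 0.0792 by edgeR), and Maf had 6.57 to 14.3 RPKM in Tfh and 0.998 to 9.32 RPKM in non-Tfh libraries. Id3, the relative of Id2, averaged 101 ± 40.4 RPKM in Tfh and 66.8 ± 48.6 RPKM in non-Tfh libraries (SD, n = 4 each; adjusted p = 0.418 by edgeR).

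Of 38 tested Th1 and cytotoxic genes 1 was lower, Id2, and none higher (edgeR), although 32 had a negative fold change and the median was -0.564. At an unadjusted p below 0.05 the count was 15 of 38, beside 1268 of 11746 over all genes tested. DESeq2 called 10, all lower, beside 698 of the 13436 genes it fitted. Tbx21, which encodes T-bet, had 106 and 53.0 RPKM in Tfh Tomato+ and 12.8 and 12.9 RPKM in Tfh Tomato- libraries, against 183 and 163 RPKM in non-Tfh Tomato+ and 10.4 and 10.5 RPKM in non-Tfh Tomato- libraries. Ifng had 87.2 and 91.3 RPKM in Tfh Tomato+ and 10.5 and 1.03 RPKM in Tfh Tomato- libraries, against 240 and 296 RPKM in non-Tfh Tomato+ and 1.30 and 1.83 RPKM in non-Tfh Tomato- libraries. Both transcripts were higher in every Tomato+ than in every Tomato- library, and within Tomato+ cells both Tfh libraries lay below both non-Tfh libraries. Their additive log2 fold changes of -0.49 for Tbx21 and -0.02 for Ifng had adjusted p of 0.721 and 0.999 by edgeR. The Tbx21 log2 fold change was -1.21 in Tomato+ and 0.24 in Tomato- cells, with an interaction not past the threshold (adjusted p = 0.774 by edgeR). Within a Tomato state the Ifng log2 fold change was -1.68 in Tomato+ and 1.84 in Tomato- cells, and its additive value combines both. The Tomato- value rests on Tfh replicate 1, at 10.5 RPKM. Tfh Tomato- replicate 2, at 1.03 RPKM, lay below both non-Tfh Tomato- libraries, so an opposite sign in Tomato- cells is not established. Of 24 tested interferon gamma response genes 2 were lower, the transcription factor Irf1 and the MHC class I light chain B2m, and none higher (edgeR), with a median of -0.454. DESeq2 called 5, all lower, and without the Tomato term none passed in edgeR while 7 had an unadjusted p below 0.05. Irf1 had 64.6 to 106 RPKM in Tfh and 135 to 225 RPKM in non-Tfh libraries. B2m differed by -0.44 ± 0.08 on the log2 scale (SE, adjusted p = 0.0369 by edgeR).

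Naive and memory genes held 5 lower members of 19 tested, among them Il7r, S1pr1, Satb1 and Klf2, and none higher (edgeR), with a median of -0.862. DESeq2 called 2 higher and 8 lower, and without the Tomato term edgeR called 3 lower. Satb1, a chromatin organiser, averaged 30.3 ± 2.56 RPKM in Tfh and 52.5 ± 6.04 RPKM in non-Tfh libraries (SD, n = 4 each). Of 17 tested Treg genes 9 had an unadjusted p below 0.05, and DESeq2 called 1 higher and 5 lower. Foxp3, the factor that defines regulatory T cells, was the 1 called in edgeR. It had 7.18, 1.35, 1.53 and 1.88 RPKM in Tfh libraries and 22.3, 23.1, 15.7 and 10.01 RPKM in non-Tfh libraries. Tfh Tomato+ replicate 1 was well above the other 3 Tfh libraries but below every non-Tfh library. The log2 fold change was -2.73 ± 0.52 (SE, adjusted p = 0.0496 by edgeR), and the call held in 1 of the 8 fits that leave out a library. In a bulk library fewer Foxp3-expressing cells and less Foxp3 RNA per cell cannot be told apart, which holds for all values here. Itgae, an integrin chain of many regulatory T cells, had 0.0714 to 2.90 RPKM in Tfh and 6.00 to 16.7 RPKM in non-Tfh libraries (adjusted p = 0.0758 by edgeR).

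The other largest falls were in genes of varied roles. Hist1h1c, a linker histone, had 11.9, 8.55, 3.51 and 1.77 RPKM in Tfh libraries and 57.4, 46.5, 29.4 and 24.2 RPKM in non-Tfh libraries, a log2 fold change of -2.90 ± 0.41 (SE, adjusted p = 0.0161 by edgeR). Rasgrp2, an activator of the GTPase Rap1, averaged 14.6 ± 7.32 RPKM in Tfh and 63.5 ± 19.0 RPKM in non-Tfh libraries (SD, n = 4 each). Glrx, a glutaredoxin, had 20.8 to 33.1 RPKM in Tfh and 70.8 to 86.1 RPKM in non-Tfh libraries. The other 4 named by the same rule, the membrane-contact protein gene Esyt1, the small GTPase gene Arl4c, Podnl1 and Cd7, had log2 fold changes of -2.22, -2.09, -1.83 and -1.76. Wscd2 and Tmprss13, a membrane protease gene, were chosen here after their values were seen. Wscd2 had 2, 2, 1 and 0 reads in Tfh libraries and 295, 243, 395 and 272 reads in non-Tfh libraries, 273-fold more per library total in non-Tfh cells (exact 95% interval 117 to 843, counting error only). Tmprss13 had 8 reads over the Tfh and 1094 over the non-Tfh libraries, 155-fold more in non-Tfh cells (78.4 to 360). The calls of both were lost with any library left out.

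Of 32 tested T cell receptor activation and immediate early genes, Dusp1 and Fos were higher and Dusp5 and Rgs1 lower in Tfh cells (edgeR), with a median of -0.256. With library totals alone 2 were higher and 0 lower, without the Tomato term none passed in edgeR while 15 had an unadjusted p below 0.05, and DESeq2 called 5 higher and 7 lower. Dusp1, a MAP kinase phosphatase, had 2801, 2251, 3618 and 2472 RPKM in Tfh libraries and 897, 905, 1361 and 1599 RPKM in non-Tfh libraries. Fos, the immediate early factor, had 1895, 1612, 2265 and 2090 RPKM in Tfh libraries and 730.1, 734, 1410.0 and 1270.0 RPKM in non-Tfh libraries. Dusp5, a phosphatase of the same family as Dusp1, averaged 368 ± 180 RPKM in Tfh and 597 ± 174 RPKM in non-Tfh libraries (SD, n = 4 each). Rgs1, a regulator of G-protein signals from chemokine receptors, averaged 206 ± 43.2 RPKM in Tfh and 316 ± 43.7 RPKM in non-Tfh libraries (SD, n = 4 each). Of 24 genes of proximal T cell receptor signalling 1 was called in edgeR, Fyn, whose call was lost whichever library was left out and without the Tomato term. DESeq2 called 4, all higher. Zap70, the kinase of the receptor complex, had 311 to 362 RPKM in Tfh and 235 to 273 RPKM in non-Tfh libraries (adjusted p = 0.206 by edgeR).

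Metabolic and growth lists gave almost no calls in edgeR. The share called over all genes tested was 0.971%, so lists of this size would hold few or no calls whatever their genes. None of 21 glycolysis genes passed (edgeR), though 18 had a positive fold change and the median was 0.363. At an unadjusted p below 0.05 the count was 7, and DESeq2 called 5 higher and 1 lower. Pfkl, a subunit of phosphofructokinase, had 33.7 to 59.0 RPKM in Tfh and 15.6 to 23.0 RPKM in non-Tfh libraries (adjusted p = 0.0502 by edgeR). Its sister subunit gene Pfkp had 59.5 to 70.8 RPKM in Tfh and 33.7 to 43.9 RPKM in non-Tfh libraries (adjusted p = 0.0885 by edgeR). Ldha, lactate dehydrogenase A, had 385 to 445 RPKM in Tfh and 515 to 602 RPKM in non-Tfh libraries (adjusted p = 0.0722 by edgeR), the other direction from the Pfk genes. None of 36 cell cycle, 21 cholesterol synthesis, 29 oxidative phosphorylation, 26 type I interferon response or 20 apoptosis genes passed, with medians of 0.288, 0.183, -0.0152, -0.105 and -0.132 in that order. At an unadjusted p below 0.05 their counts were 2, 1, 1, 5 and 4, and DESeq2 called 0, 0, 0, 4 and 4. Over all genes the unadjusted count was 1268 of 11746, and DESeq2 called 698 of the 13436 it fitted. The oxidative phosphorylation median was 0.0475 with library totals alone. Of 32 cytosolic ribosomal protein genes 1 was lower and none higher (edgeR). At an unadjusted p below 0.05 the count was 16, DESeq2 called 9, all lower, and with library totals alone none passed in edgeR. In this list 30 of 32 genes had a negative fold change, and the median was -0.50 (-0.43 with library totals alone). In 16 of the 32 all 4 Tfh libraries lay below all 4 non-Tfh libraries, beside 373 of 11746 (3.18%) over all genes tested. Many ribosomal protein and glycolysis genes have processed pseudogenes, and the sources used here do not say how the authors' counting treated reads shared with them.

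Every one of the 114 genes had the same sign in both Tomato states, a direction that their selection largely fixes. Over all 11746 genes the sign was shared in 6592 (56.1%). Across the 7013 genes with a mean of at least 5 RPKM, Pearson's r between the Tomato+ and Tomato- differences was 0.247, a description across genes that share libraries within each state. Among the 114 genes the median absolute log2 fold change was 1.44 in each state, and 49 had the larger difference in Tomato+ and 65 in Tomato- cells. In the contrasts within 1 state, 9 genes were called in Tomato+ cells (0.0766%), all among the 114, and 21 in Tomato- cells (0.179%), 17 of them among the 114. The 4 genes called in both were Ascl2, Selplg, Tox and Sostdc1, all of them also called in the additive model. Without non-Tfh Tomato+ replicate 1, 0 genes passed within Tomato+ cells, and the same was true of leaving out any other library except Tfh Tomato+ replicate 2, which left 1. Within Tomato- cells 0 genes passed without any 1 of the 4 Tomato- libraries, 1 without Tfh Tomato+ replicate 1 and 5 without Tfh Tomato+ replicate 2, while 20 passed without non-Tfh Tomato+ replicate 1 and 16 without non-Tfh Tomato+ replicate 2.

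**Figure D4:**
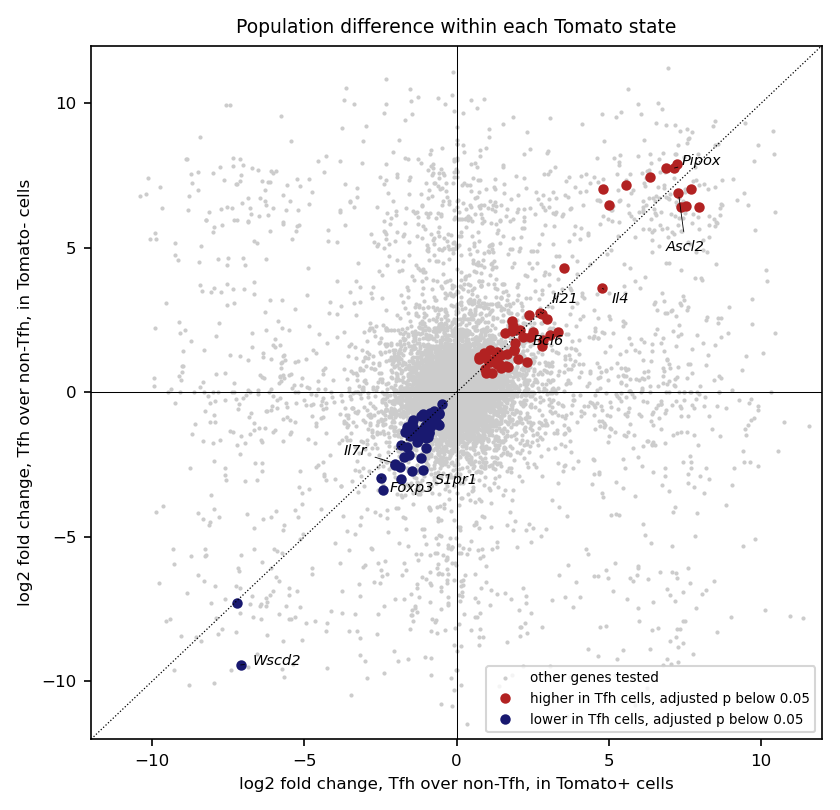
Log2 fold change of Tfh over non-Tfh cells within Tomato+ cells (x axis) and within Tomato- cells (y axis) for 11746 genes. Red points were higher and blue points lower in Tfh cells in the additive model, grey points were not past the threshold, and the dotted line marks equal differences. The 114 called genes lie in the 2 quadrants of shared sign.

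The test of the difference itself called no gene: 0 of 11746 (0.0%) had an interaction of population and Tomato state past the threshold in edgeR, with a smallest adjusted p of 0.677, while 747 had an unadjusted p below 0.05. DESeq2 called 242 and limma-trend 0. Among the 114 genes 12 had an unadjusted interaction p below 0.05. S1pr1 had the smallest of these, at 0.000228, with its larger fall in Tomato- cells. Cxcr5 and Sostdc1 had larger differences in Tomato+ cells, with log2 fold changes of 2.79 for Cxcr5 and 3.32 for Sostdc1, against 1.62 and 2.09 in Tomato- cells. Among genes with a mean of at least 5 RPKM in at least 1 group, the 5 smallest interaction p included that of S1pr1. The other 4 of these genes were Emp1, Abhd4, Apoe and Tmem38b. Emp1, an epithelial membrane protein gene, had 7.38 and 16.1 RPKM in Tfh Tomato+ and 0.0629 and 0.0716 RPKM in Tfh Tomato- libraries, against 26.2 and 25.1 RPKM in non-Tfh Tomato+ and 9.89 and 8.29 RPKM in non-Tfh Tomato- libraries. Abhd4, a lipid hydrolase gene, had 29.8 to 41.5 RPKM in the 4 Tfh libraries, against 17.2 and 12.9 RPKM in non-Tfh Tomato+ and 0.758 and 1.19 RPKM in non-Tfh Tomato- libraries. Tmem38b, an ion channel gene, was near 0 in the non-Tfh Tomato+ libraries alone, at 0.0901 and 0.0782 RPKM, and at 5.70 to 14.5 RPKM in the 4 Tfh and 6.91 and 12.6 RPKM in the non-Tfh Tomato- libraries. Apoe, the macrophage marker among them, had 177 and 96.0 RPKM in Tfh Tomato+ and 153 and 119 RPKM in Tfh Tomato- libraries, against 42.7 and 32.5 RPKM in non-Tfh Tomato+ and 255 and 351 RPKM in non-Tfh Tomato- libraries. Apoe is itself part of the macrophage sum given above. Both were higher in Tomato- than in Tomato+ libraries of non-Tfh cells. In Tfh cells only the sum was, while the Apoe values of the Tomato states overlapped.

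**Figure D5:**
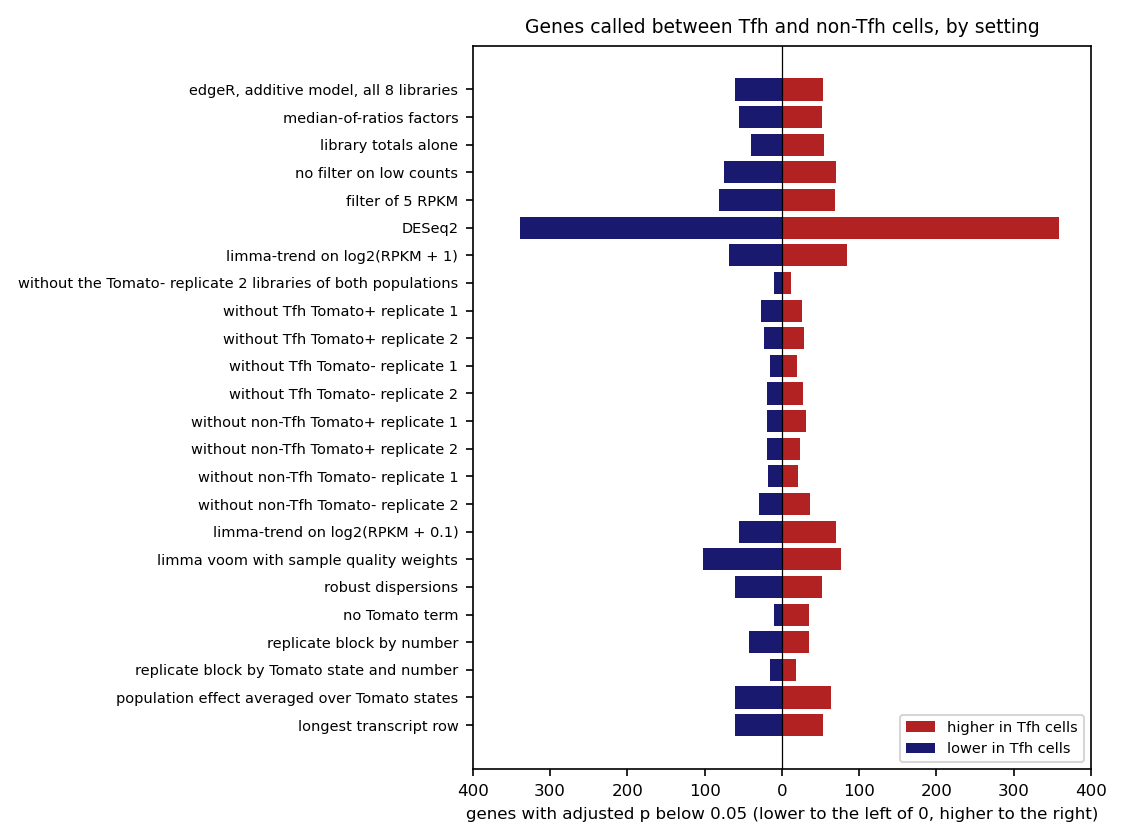
Number of genes with adjusted p below 0.05 that were higher (right of 0) or lower (left of 0) in Tfh cells, with all 8 libraries in edgeR and under each alternative. edgeR with all 8 called 53 higher and 61 lower, DESeq2 called 359 higher and 339 lower, and each fit without 1 library called between 34 and 66 genes.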

How the data were processed

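Polyadenylated RNA of 8 libraries was analysed, in 4 groups of 2 taken from the sample titles. The deposited tables give whole-number read counts for 29257 transcript rows, and the authors' RPKM, deposited beside the counts, scale them by transcript length and library total. Build mm9 and the tools Bowtie2, CASAVA 2.18, edgeR and SICER 1.1 are named per the submitters' processing notes; the sources used here do not say what each tool did, how reads were counted or whether strand was used. Reads of paralogs and overlapping or antisense genes may therefore be shared. For each of 22878 symbols the row with most reads was kept. Symbols were checked against RefSeq names, which held 20324 of them and an older form of another 2343; 694 of 704 list entries matched. Spleen RNA and chromatin libraries were not used here.

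Counts were fitted in edgeR 4.0.16 (R 4.3.3) with trimmed-mean factors, filterByExpr, population and Tomato state as additive terms and quasi-likelihood F tests with 5 residual degrees of freedom, adjusted by Benjamini-Hochberg over 11746 genes at a threshold of 0.05. All adjusted p-values come from these fits unless another tool is named. Fold changes are on the log2 scale, Tfh over non-Tfh, and the SE is the absolute fold change divided by the square root of F. For genes near 0 reads the fitted value depends on the prior count, so read ratios with exact (Clopper-Pearson) 95% intervals are given, which cover counting error only. A floor of 3 reads a library was set only to bound folds where a whole population had no reads, which was the case for no called gene. The common biological coefficient of variation was 0.948. In data simulated for this comparison over 11491 genes, the test recovered 47 of 100 genes changed by a log2 fold of 2 and 73 of 100 changed by 3. The changed genes were drawn without those of lowest mean level, and no Tomato difference was simulated. Recovery of genes with the lowest levels was therefore not tested.

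Named genes were the 2 gate genes, 20 chosen genes and the called genes with the 12 largest positive and 12 largest negative fold changes. These largest changes needed no overlap between populations and a mean of at least 5 RPKM in the higher one. Up to 4 members of each of 32 lists were named by p. The 5 genes with the smallest interaction p were named among those with a group mean of at least 5 RPKM. Further called list members, marker genes, Gata3, Rnaset2a, Rnaset2b, Wscd2 and Tmprss13 were named after their values were seen, and some genes under this rule are not reported here. The members and lists were chosen with earlier results of these data known. Alternatives were DESeq2 1.42.0, limma 3.58.1 (trend on log2(RPKM + 1) or + 0.1, and voom with quality weights), other factors, filters and covariates, the longest transcript row, and each library left out.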

Additional observations from a re-analysis of the deposited data

Results flagged for a closer look

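In each population of 4 libraries, the named genes were searched for a library far from the other 3 (the gap to its nearest neighbour over the whole range, against Dixon's critical value). This flagged 5 of 194 gene and population pairs. Chance flags about 1 in 20 where all 4 libraries are of 1 kind. Each population here holds 2 Tomato+ and 2 Tomato- libraries, so the count cannot be judged against that rate. In Tfh cells, Foxp3 was highest in Tomato+ replicate 1, at 7.18 RPKM, with a ratio of 0.909. In non-Tfh cells, Cd40lg was highest in Tomato- replicate 2, at 260.0 RPKM, with a ratio of 0.878, and Chn1 was highest in the same library, at 0.0955 RPKM, with a ratio of 0.934. Cxxc5 was highest in non-Tfh Tomato+ replicate 2, at 0.952 RPKM, with a ratio of 0.987. Rplp0 was lowest in non-Tfh Tomato+ replicate 1, at 896.5 RPKM, with a ratio of 0.833. The cause was not tested.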

How the results depend on the processing

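None of the 114 calls changed direction under any of the 23 alternatives; 25 passed with each library left out in turn, and 9 passed under all 23 (Ascl2, Bcl6, Cxxc5, Fam43a, Il4, Pdcd1, Sh2d1a, Sostdc1 and Tox). The additive count of 114 became 698 with DESeq2, 179 with voom and quality weights, 45 without a Tomato term, 22 without replicate 2 of both Tomato- groups and 34 to 66 with 1 library left out, where the lone library of a group is assumed to vary like the others. The interaction count of 0 became 242 with DESeq2 and was 0 with each library left out. The count within Tomato+ cells, 9, became 16 with library totals, 50 with no filter, 21 with a 5 RPKM filter, 465 with DESeq2, 29 with limma-trend on log2(RPKM + 1), 0 without replicate 2 of both Tomato- groups and 0 to 1 with 1 library left out. The count within Tomato- cells, 21, became 51 with no filter, 45 with a 5 RPKM filter, 607 with DESeq2, 43 with limma-trend, 0 without replicate 2 of both Tomato- groups and 0 to 20 with 1 library left out. Whether replicate numbers pair the samples could not be decided. Deviations of same-numbered libraries correlated at -0.0152 to 0.0279 over all genes tested, but noise of single genes can hide a shared part. Neutrophil markers were highest in replicate 2 of both Tomato- groups. With the replicate number as a block the additive count was 78, 1 within Tomato+ and 22 within Tomato- cells; with a block for each Tomato state and number it was 33. Ifng, not called, turned positive with library totals (0.037), DESeq2 (0.051) and averaging over Tomato states (0.078), and ran from -1.31 to 0.60 with 1 library left out. The largest shift of the median of all genes was 0.0777. The cause of these changes was not tested. That none of the 114 calls changed direction is largely fixed by their lack of overlap within both Tomato states, since the alternatives refit the same libraries. At 2 libraries a group and these depths, genes with few reads could not be compared in the lower population beyond the intervals given.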
